A study of Mus musculus with 12 samples.

Results

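The suppressor of cytokine signalling (SOCS) family is described here in mouse pancreatic islets through all of its 8 genes, Socs1 to Socs7 and Cish. They were chosen by symbol from the 55536 genes of the count table, before any filter, and all 8 later passed the filter on low counts. RNA of islets from 16-week-old mice was sequenced in 12 libraries, 3 in each of 4 groups. The first group is islets labelled bKO (titled PTPN2 -/-, and Ptpn2-bKO in the protocols) given a 24 h mixture of the cytokines IFN-gamma, TNF alpha and IL-1beta, and the second is untreated islets labelled bKO. The other groups are control islets with and without the same cytokines, which carry the genotype label PTPN2 fl/fl and the title PTPN2 +/+. All mice shared a C57BL/6J mixed background. The sources used here do not give the Cre driver. Total RNA came from islets of 3 mice per genotype, so mice recur among the 6 libraries of a genotype, in an arrangement that the labels leave out. The tests treat the 12 libraries as independent, and their p-values measure the spread between these libraries.

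SOCS proteins are the feedback brake of cytokine signalling. Cytokine receptors activate Janus kinases (JAKs), which phosphorylate STAT transcription factors, and STATs switch on SOCS genes. Each SOCS protein holds an SH2 domain that binds phosphorylated receptors or kinases and a SOCS box that recruits a Cullin-5 ubiquitin ligase, and SOCS1 and SOCS3 also carry a short region that blocks JAK activity directly. In islets, SOCS1 restrains interferon signalling, SOCS3 restrains signalling through receptors of the IL-6 family, and CISH and SOCS2 restrain growth hormone and prolactin receptors, which beta cells use during pregnancy. Ptpn2 encodes a tyrosine phosphatase that acts on JAKs and STATs and so works on the same pathway.

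Libraries held 47064061 to 107515565 counts, and markers of beta cells summed to 90000 to 177000 CPM (counts scaled to the library size) in them. Ptpn2 itself had 101 CPM (SD 14.3, n = 3) in cytokine-treated and 35.3 (SD 1.47) in untreated islets labelled bKO, against 85.9 (SD 6.61) and 31.0 (SD 0.632) in control islets. Its RNA was thus not lower in the islets labelled bKO, and counts over the whole gene do not test whether an exon was removed. Replicate 2 of the cytokine-treated islets labelled bKO stood apart. Its beta cell markers summed to 90000 CPM, against 162000 and 148000 in the other libraries of its group, its ductal markers to 6090 against 1900 and 2760, and its stellate markers to 8160 against 3280 and 3080. For the members, the main results that rest on this library are given with it and without it. Replicate 2 of the cytokine-treated control islets, the library with the most counts (107515565), differed in the other direction. Its stellate markers summed to 1500 CPM against 4320 and 3150, and its ductal markers to 1350 against 1940 and 2700. Comparisons of genotype with cytokines use both of these libraries. In whole islets, fewer cells of a type and less RNA per cell cannot be told apart.

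With cytokines, Socs1 RNA rose more than 30-fold in both genotypes, and no other member moved by more than about 2-fold. Socs2 and Socs5 fell in both genotypes, Socs6 rose in islets labelled bKO and Socs7 rose in control islets. Socs3, Socs4 and Cish did not pass the test in either genotype. In all, 2 of 8 members were called higher and 2 lower in islets labelled bKO, at an adjusted p under 0.05 in edgeR's quasi-likelihood test, where 28.8% of all 19800 tested genes were called higher and 33.6% lower. In control islets 2 members were called higher and 2 lower, where 26.8% of genes were called higher and 33.9% lower. The family's share of calls, 4 of 8 in each genotype, was thus not above the share among all genes, of which 62.4% were called in islets labelled bKO and 60.6% in control islets. The family's median log2 change was 0.13 in islets labelled bKO and 0.12 in control islets, and that of all genes was -0.06 and -0.10.

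**Figure D1:**
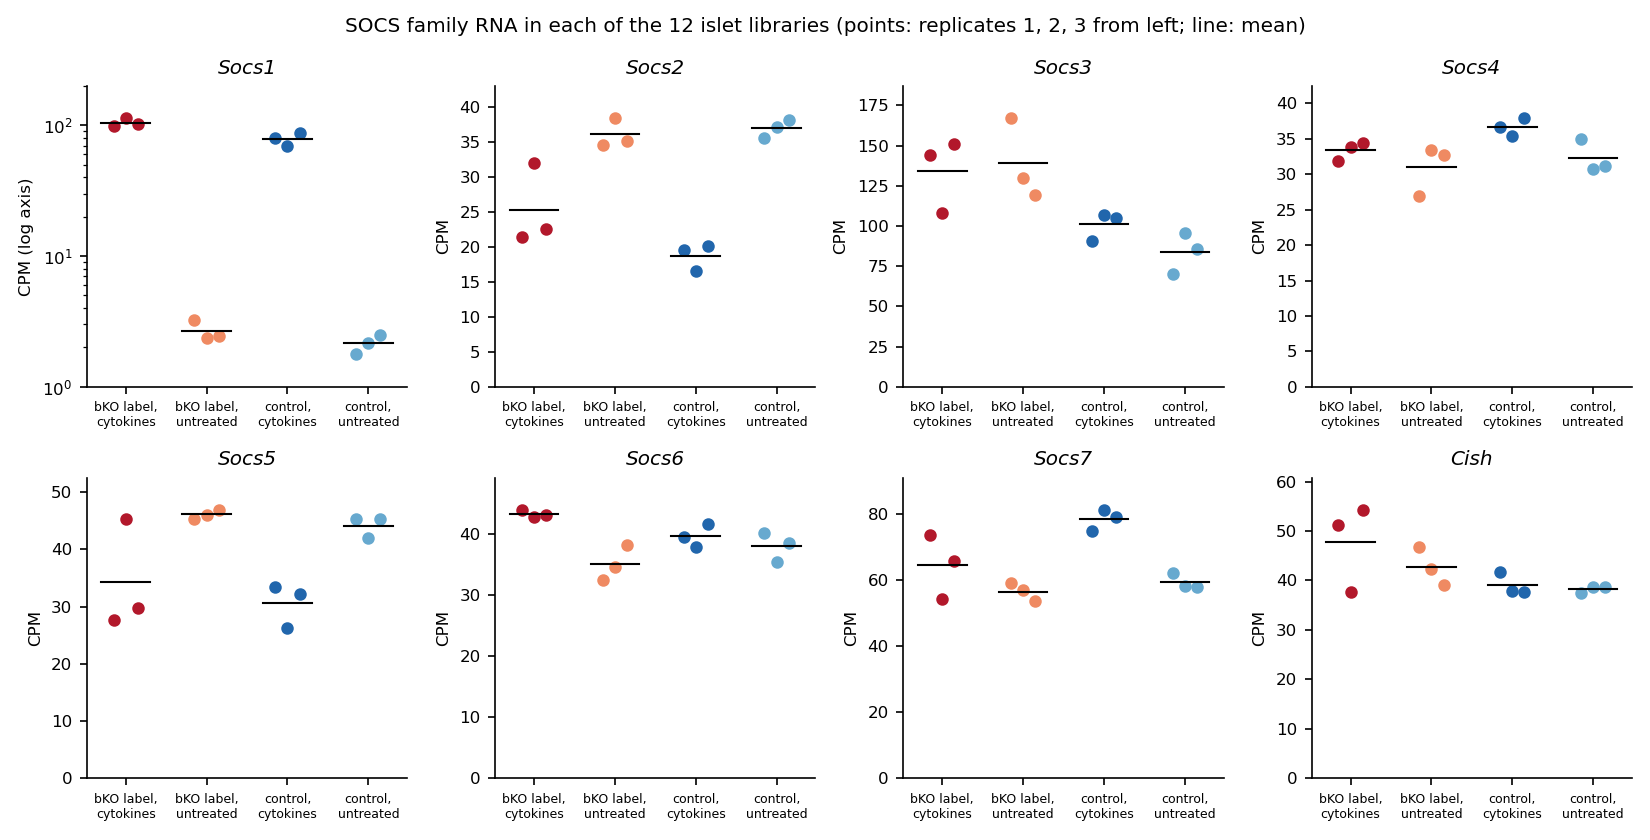
Level of each SOCS family gene in each library (y axis, CPM scaled by TMM, from 0 except for Socs1, whose axis is logarithmic), with a point for each of 3 replicates per group and a line at the mean. Socs1 sits at 69.6 to 114 CPM in the 6 cytokine-treated libraries and at 1.79 to 3.24 CPM in the 6 untreated ones, and for Socs2, Socs3, Socs5, Socs7 and Cish replicate 2 of treated bKO-labelled islets lies away from the other 2.

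Socs1 encodes the inhibitor that acts on JAKs downstream of interferon receptors, and lies at chr16:10782240-10785536 on the minus strand of GRCm38. Its promoter holds the most motif matches found here outside an annotated exon, so it is shown, from the 250 bases before the RefSeq start site on the gene's strand (chr16:10785537-10785786), with the matches in capitals.
Socs1: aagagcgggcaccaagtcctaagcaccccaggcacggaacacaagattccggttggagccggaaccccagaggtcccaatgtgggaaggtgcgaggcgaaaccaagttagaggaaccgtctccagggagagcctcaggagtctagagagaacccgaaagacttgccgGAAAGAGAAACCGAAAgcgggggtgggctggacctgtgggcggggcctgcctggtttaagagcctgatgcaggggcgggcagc
The capitals mark 2 overlapping matches to GAAA, any 2 bases and GAAA again, the core of the element that interferon-activated factors bind, with first bases at -83 and -77 from the start. At least 1 match on either strand was found in 3.44% of all 32851 mouse promoter windows of this length (250 bases before to 50 after a start), and 2 or more in 0.225%. A match is a description of these letters and not a measured binding site.

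Socs1 had 98.4, 114 and 103 CPM in cytokine-treated islets labelled bKO, against 3.24, 2.38 and 2.46 CPM in untreated ones. In control islets it had 79.8, 69.6 and 87.8 CPM with cytokines and 1.79, 2.15 and 2.51 CPM without. Every treated library was far above every untreated one, and the untreated levels rest on 114 to 212 counts per library against 4183 to 6744 in treated ones. The change was 39.0-fold in islets labelled bKO (log2 5.29, SE 0.16, adjusted p = 7.27e-10, edgeR), which ranked 35 of 19800 genes by p. In control islets it was 36.6-fold (log2 5.20, SE 0.16, adjusted p = 7.11e-10, edgeR).

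Socs2 encodes an inhibitor of growth hormone signalling and lies at chr10:95385362-95417180 on the minus strand. It had 21.4, 32.0 and 22.6 CPM in cytokine-treated islets labelled bKO, against 34.6, 38.4 and 35.2 CPM in untreated ones. Control islets had 19.5, 16.6 and 20.1 CPM with cytokines and 35.6, 37.2 and 38.2 CPM without. The treated and untreated libraries did not overlap in either genotype, and replicate 2 of treated bKO-labelled islets was the closest to the untreated level. Socs2 fell 1.42-fold in islets labelled bKO (log2 -0.51, SE 0.14, adjusted p = 0.00635, edgeR) and 1.98-fold in control islets (log2 -0.98, SE 0.14, adjusted p = 7.38e-05, edgeR). Without replicate 2 the fall in islets labelled bKO was -0.65 (adjusted p = 3.11e-05, edgeR).

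Socs5 encodes an inhibitor linked to EGF receptor and IL-4 signalling and lies at chr17:87107679-87137839 on the plus strand. Its levels were 27.6, 45.2 and 29.8 CPM in cytokine-treated islets labelled bKO, against 45.3, 46.0 and 46.9 CPM in untreated ones. In control islets they were 33.4, 26.2 and 32.2 CPM with cytokines and 45.2, 41.9 and 45.2 CPM without. Among treated bKO-labelled islets, replicate 2 thus lay at the untreated level, just below its lowest library. The log2 change was -0.43 in islets labelled bKO (SE 0.16, adjusted p = 0.0332, edgeR) and -0.53 in control islets (SE 0.16, adjusted p = 0.0126, edgeR). Without replicate 2 the change in islets labelled bKO was -0.62 (adjusted p = 6.13e-05). That call was lost when any of the other 5 libraries labelled bKO was left out (log2 -0.44 to -0.29, adjusted p 0.0615 to 0.121), and the control call was lost without replicate 2 of the treated controls (-0.43, adjusted p = 0.0533).

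Socs6 and Socs7 encode members with long amino-terminal regions that act mainly on receptor tyrosine kinases and their adaptors. Socs6 had 43.9, 42.7 and 43.0 CPM in cytokine-treated islets labelled bKO, against 32.4, 34.6 and 38.1 CPM in untreated ones, with no overlap. In control islets it had 39.4, 37.8 and 41.6 CPM with cytokines and 40.1, 35.3 and 38.4 CPM without, which overlapped. Its log2 change was 0.30 in islets labelled bKO (SE 0.076, adjusted p = 0.0047, edgeR) and 0.06 in control islets (SE 0.076, adjusted p = 0.506, edgeR). The difference between the responses was 0.24 (SE 0.11, adjusted p = 0.451, edgeR), so a difference between genotypes was not shown.

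Socs7 lies at chr11:97362551-97398542 on the plus strand and had 73.5, 54.1 and 65.7 CPM in cytokine-treated islets labelled bKO, against 58.9, 56.9 and 53.5 CPM in untreated ones. Control islets had 74.7, 81.2 and 79.0 CPM with cytokines and 62.1, 58.0 and 57.9 CPM without. The control groups did not overlap, and the groups labelled bKO overlapped through replicate 2. The log2 change was 0.19 in islets labelled bKO (SE 0.097, adjusted p = 0.104, edgeR) and 0.40 in control islets (SE 0.097, adjusted p = 0.00373, edgeR). Without replicate 2 the change in islets labelled bKO was 0.36 and passed the test (adjusted p = 0.00159). With library totals in place of TMM scaling the median of all genes moved to -0.29 in islets labelled bKO and -0.33 in control islets, and neither Socs6 in islets labelled bKO (0.07, adjusted p = 0.431) nor Socs7 in control islets (0.17, adjusted p = 0.0939) passed.

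Socs3 encodes the inhibitor that binds the IL-6 family receptor chain gp130, and lies at chr11:117966079-117970047 on the minus strand. It had 144, 108 and 151 CPM in cytokine-treated islets labelled bKO, against 167, 130 and 119 CPM in untreated ones. In control islets it had 90.9, 107 and 105 CPM with cytokines and 69.9, 95.4 and 85.9 CPM without. Treated and untreated libraries overlapped in both genotypes. The log2 change was -0.05 in islets labelled bKO (SE 0.16, adjusted p = 0.802, edgeR), where DESeq2's size factors turned its sign (0.03), and 0.27 in control islets (SE 0.16, adjusted p = 0.166, edgeR). Part of its promoter window is shown because Socs3 had the family's largest difference between genotypes: a stretch of 165 bases that holds no annotated exon, on the gene's strand (chr11:117969452-117969616).
Socs3: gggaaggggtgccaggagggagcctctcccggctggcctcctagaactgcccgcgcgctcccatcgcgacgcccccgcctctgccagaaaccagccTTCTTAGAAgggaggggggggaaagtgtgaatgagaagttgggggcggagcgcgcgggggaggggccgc
The capitals mark a match to TTCNNNGAA, the element (GAS) that STAT dimers bind, with its first base at -154 from the start. At least 1 such match was found in 8.3% of the 32851 windows.

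Cish encodes the first described member of the family, which STAT5 switches on, and lies at chr9:107296026-107302784 on the plus strand. It had 51.3, 37.6 and 54.3 CPM in cytokine-treated islets labelled bKO, against 46.7, 42.4 and 39.0 CPM in untreated ones. Control islets had 41.7, 37.9 and 37.7 CPM with cytokines and 37.4, 38.7 and 38.6 CPM without, so the groups overlapped in both genotypes. The log2 change was 0.16 in islets labelled bKO (SE 0.12, adjusted p = 0.262, edgeR) and 0.03 in control islets (SE 0.12, adjusted p = 0.826, edgeR), and both turned negative with library totals (-0.07 and -0.20). Without replicate 2 the change in islets labelled bKO was 0.37 and passed the test (adjusted p = 0.00155). Of the merged exons of Cish, 7.46% overlap the antisense gene Gm17041 and 4.07% the pseudogene Gm17040, and the counting strand is unknown, so its counts are uncertain. The 30 bases that hold both GAS matches of its window are shown, inside an annotated exon on the plus strand (chr9:107296654-107296683).
Cish: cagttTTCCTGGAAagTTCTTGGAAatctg
The capitals mark the matches, with first bases at 1 and 12 from the RefSeq start, and 2 or more GAS matches were found in 0.457% of windows.

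Socs4, at chr14:47276931-47296102 on the plus strand, encodes a member related to Socs5. It had 31.8, 33.9 and 34.4 CPM in cytokine-treated islets labelled bKO, against 26.9, 33.4 and 32.7 CPM in untreated ones, which overlapped. In control islets it had 36.7, 35.4 and 37.9 CPM with cytokines and 34.9, 30.8 and 31.2 CPM without, and here the groups did not overlap. The log2 change was 0.10 in islets labelled bKO (SE 0.089, adjusted p = 0.323, edgeR) and 0.18 in control islets (SE 0.089, adjusted p = 0.0917, edgeR). Both turned negative with library totals (-0.12 and -0.04), while with DESeq2's size factors the change in control islets passed the test (0.27, adjusted p = 0.0186). Its promoter window held no match to the paired GAAA core, to TTCNNNGAA or, on the gene's strand, to the kappa B motif. The kappa B motif was searched on the gene's strand alone. There, no window of the 4 members matched in the RefSeq promoter table (Socs1, Socs3, Socs4 and Cish) held it, and 5.89% of all windows did.

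**Figure D2:**
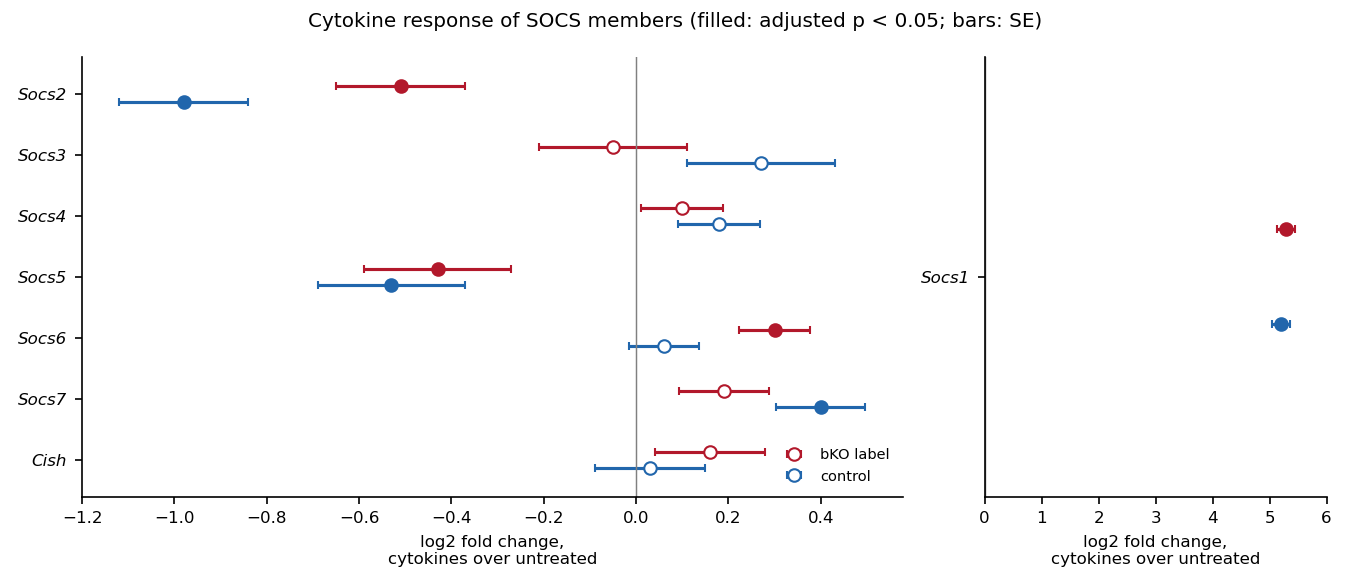
Log2 fold change of each SOCS family gene with cytokines over untreated (x axis), in islets labelled bKO (red) and control islets (blue), with bars of 1 SE and filled points at adjusted p under 0.05. Socs1 has its own panel, at 5.29 in islets labelled bKO and 5.20 in control islets, and the 7 other members lie between -0.98 and 0.40.

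Leaving out replicate 2 of treated bKO-labelled islets raised the number of members called higher to 4 in islets labelled bKO (Socs1, Socs6, Socs7 and Cish) and 4 in control islets (Socs1, Socs3, Socs4 and Socs7), with 2 lower in each. The shares of all genes called were then 30.4% higher and 32.9% lower in islets labelled bKO, and 32% higher and 33.9% lower in control islets. Socs3 in control islets was at 0.34 (adjusted p = 0.042, edgeR) and Socs4 at 0.25 (adjusted p = 0.0199, edgeR) in that fit. By levels alone, 2 members lay above and 2 below in treated islets labelled bKO with no overlap, where 29.8% of all genes lay above and 35.3% below. In control islets 3 members lay above (Socs1, Socs4 and Socs7) and 2 below, where 30.5% of genes lay above and 40% below.

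Markers of other cell types moved with the cytokines, in a fit that called 28.8% of all genes higher and 33.6% lower in islets labelled bKO. In control islets it called 26.8% higher and 33.9% lower. Of 12 macrophage markers, 11 were called higher in each genotype, and their sum was 582 to 770 CPM in treated and 192 to 260 CPM in untreated islets labelled bKO, against 543 to 646 and 197 to 238 CPM in control islets. All 8 endothelial markers were called lower in each genotype, with sums of 141 to 184 CPM in treated and 563 to 572 CPM in untreated islets labelled bKO, against 109 to 162 and 501 to 649 CPM in control islets. All 6 alpha cell markers were also called lower in each genotype, with sums of 6280 to 7630 CPM in treated and 15500 to 19000 CPM in untreated islets labelled bKO, against 8410 to 11100 and 17800 to 22800 CPM in control islets. Of 7 T cell markers 3 were tested, of which 1 rose and 1 fell in each genotype. The T cell sum was 10.2 to 17.5 CPM in treated and 5.23 to 6.12 CPM in untreated islets labelled bKO. In control islets it was 7.86 to 11.4 and 3.63 to 5.31 CPM. Lck weighs most in this sum, at 12.8 CPM in treated and 4.3 CPM in untreated islets labelled bKO, against 8.36 and 3.26 CPM in control islets. Trac was lower with cytokines, at 0.197 and 0.595 CPM in islets labelled bKO and 0.139 and 0.695 CPM in control islets. The T cell markers Cd3d, Cd3e, Cd3g and Cd8a and the B cell marker Ms4a1 did not pass the filter on low counts. Of 8 beta cell markers 5 were called lower in each genotype, with a median of -2.10 in islets labelled bKO and -1.68 in control islets. Their sum, in which Ins2 weighs most, was higher in every treated than in every untreated control library, at 144000 to 177000 CPM against 124000 to 136000 CPM. In islets labelled bKO it was 90000 to 162000 CPM in treated libraries, lowest in replicate 2, and 124000 to 135000 CPM in untreated ones. Of 3 delta cell markers 2 were called lower in islets labelled bKO and 3 in control islets, with sums of 448 to 656 CPM in treated and 1780 to 2090 CPM in untreated islets labelled bKO, against 479 to 819 and 1830 to 2050 CPM in control islets. Of 2 PP cell markers 2 were called lower in islets labelled bKO and 1 in control islets, with sums of 819 to 1250 CPM in treated and 3350 to 4580 CPM in untreated islets labelled bKO, against 1250 to 1830 and 3650 to 4070 CPM in control islets. Of 8 acinar markers 3 were called lower in islets labelled bKO and 7 in control islets, with sums of 737 to 2760 CPM in treated and 1920 to 3160 CPM in untreated islets labelled bKO, against 856 to 1400 and 4280 to 6960 CPM in control islets. Of 7 stellate markers 5 were called higher in islets labelled bKO and 1 in control islets, and of 6 ductal markers 1 was called higher in each genotype and 3 lower in control islets. Treated stellate sums were 3080 to 8160 CPM in islets labelled bKO, highest in replicate 2, and 1500 to 4320 CPM in control islets. Untreated ones were 2120 to 2840 and 1850 to 2380 CPM. Treated ductal sums were 1900 to 6090 CPM, again highest in replicate 2, and 1350 to 2700 CPM. Untreated ductal sums were 2110 to 2690 and 1800 to 2230 CPM. The part of these markers in the Socs1, Socs2 and Socs5 changes was not tested.

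Levels of different members can be compared only per length, as CPM per kb of merged annotated exons, a measure that counts exons of every annotated transcript and so understates genes with long rarely used exons. By group means on this scale, Socs3 led in every group. It was at 46.4 in cytokine-treated and 48.0 in untreated islets labelled bKO, against 34.9 and 29.0 in control islets. Socs1 was second with cytokines, at 36.2 in islets labelled bKO and 27.2 in control islets, and last without, at 0.926 and 0.738. The ranges of Socs3 and Socs1 overlapped in treated islets labelled bKO and not in treated control islets. In untreated control islets the order after Socs3 was Socs7 (8.17), Socs5 (6.87), Cish (5.96), Socs4 (4.69), Socs2 (3.88), Socs6 (3.34) and Socs1, with no overlap between neighbours. In untreated islets labelled bKO the order was the same, and Socs5 overlapped Cish and Socs4 overlapped Socs2. With cytokines Socs2 was last, at 2.66 in islets labelled bKO and 1.96 in control islets. In treated islets labelled bKO, Socs7 overlapped Cish, Cish overlapped Socs5 and Socs5 overlapped Socs4, while Socs4 and Socs6 did not overlap. In treated control islets, apart from Socs4 and Socs5, no neighbours overlapped.

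Summed over the 8 members, the family reached 116 CPM per kb (SD 6.07, n = 3) in cytokine-treated and 81.9 (SD 8.91) in untreated islets labelled bKO, against 94.5 (SD 4.27) and 62.6 (SD 3.7) in control islets. Socs1 made up 31.4% of the sum in treated and 1.13% in untreated islets labelled bKO, against 28.7% and 1.18% in control islets. Socs3 made up 40.0% in treated and 58.3% in untreated islets labelled bKO, against 36.9% and 46.1% in control islets. The share of Socs2 was 2.32% in treated and 4.66% in untreated islets labelled bKO, against 2.08% and 6.21% in control islets. By group means Socs3 was thus the largest share in all 4 groups, with Socs1 next only after cytokines. In replicate 2 of treated bKO-labelled islets the order was reversed, with Socs1 at 36.1% and Socs3 at 34.2%.

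**Figure D3:**
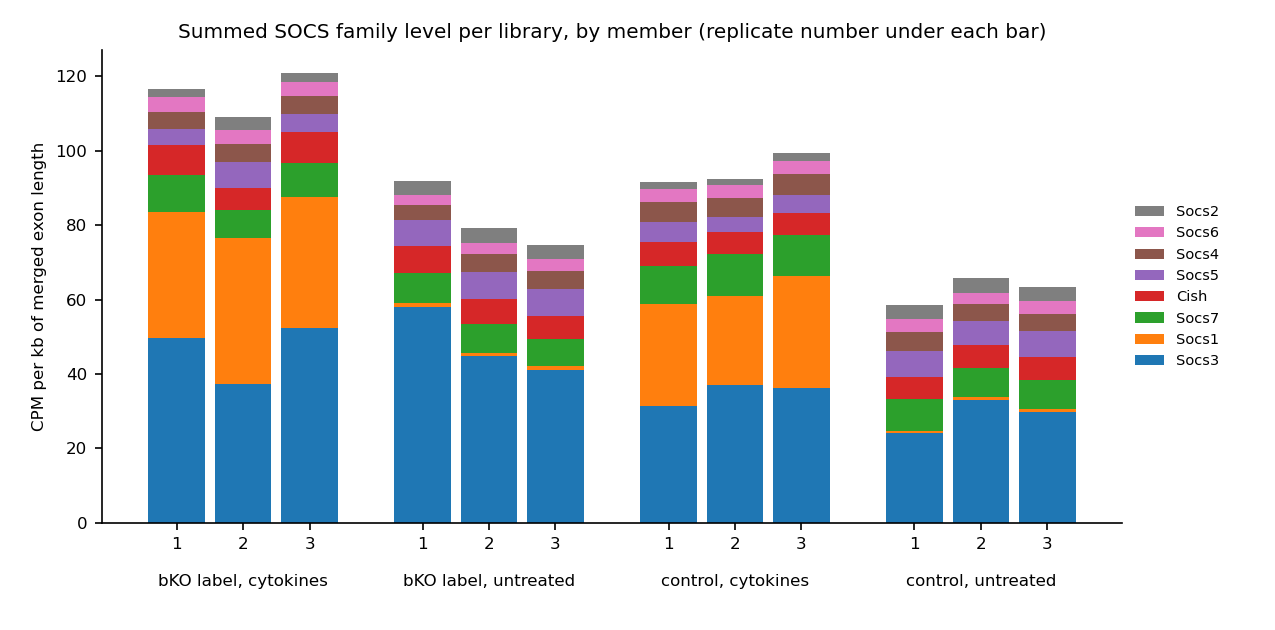
Summed level of the 8 SOCS genes in each library (y axis, CPM per kb of merged exon, stacked by member, replicate number under each bar). The sum is 109 to 121 in treated and 74.6 to 91.9 in untreated islets labelled bKO, 91.7 to 99.4 in treated and 58.6 to 65.8 in untreated control islets, and the Socs1 layer is a thin line without cytokines.

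Between genotypes, no member passed edgeR's test in untreated islets, where 0.0758% of all genes were called, all higher, and 1099 genes had an unadjusted p under 0.05. Socs3 came closest. Its 167, 130 and 119 CPM in untreated islets labelled bKO all lay above the 69.9, 95.4 and 85.9 CPM of untreated control islets, a 1.66-fold difference (log2 0.73, SE 0.16, unadjusted p = 0.00077, adjusted p = 0.251, edgeR) that ranked 61 of 19800 genes by p. DESeq2 called it (log2 0.74, SE 0.18, adjusted p = 0.0129), as the only member among the 0.646% of genes that DESeq2 called, and limma-voom did not (adjusted p = 0.197). Over the 22 alternatives the difference ranged from 0.57 to 0.83 and the adjusted p from 0.0129 to 0.719. It was largest without replicate 3 of untreated bKO-labelled islets or replicate 2 of untreated controls, and smallest without replicate 1 of untreated bKO-labelled islets. With replicate 2 of treated bKO-labelled islets left out, its adjusted p was 0.0555 and 0.298% of all genes were called.

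The other members differed less between the genotypes in untreated islets. Socs1 was at log2 0.32 (SE 0.15, adjusted p = 0.941, edgeR), and its groups overlapped. Cish was at 0.16 (SE 0.12) and the 5 others between -0.12 and 0.06, all with an adjusted p of 1. By levels alone Socs3, Socs5 and Cish lay above the controls with no overlap and no member lay below, where 8.24% of all genes lay above and 7.94% below. The acinar marker sum was 1920 to 3160 CPM in untreated islets labelled bKO and 4280 to 6960 CPM in untreated control islets, with 0 of 8 markers called lower and a median of -1.05, and its part in these values was not tested.

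With cytokines, no member passed edgeR's test between genotypes, where 0.232% of all genes were called, 0.141% higher and 0.0909% lower, and 3530 had an unadjusted p under 0.05, among them 5 members. Socs1 had 98.4 to 114 CPM in treated islets labelled bKO and 69.6 to 87.8 CPM in treated control islets, a difference of 0.41 (SE 0.13, adjusted p = 0.172, edgeR). Socs2 was at 0.44 (SE 0.14, adjusted p = 0.163, edgeR), and DESeq2 called it (0.43, SE 0.14, adjusted p = 0.0471), as the only member among the 3.56% of genes that DESeq2 called. With replicate 2 of treated bKO-labelled islets left out, Socs2 was at 0.22 (adjusted p = 0.304, edgeR). Socs3 was at 0.41 (SE 0.16, adjusted p = 0.233), Cish at 0.29 (SE 0.12, adjusted p = 0.258) and Socs7 at -0.28 (SE 0.097, adjusted p = 0.192) in edgeR's test. Without replicate 2 Cish was at 0.42 (adjusted p = 0.0511), Socs3 at 0.53 and Socs7 at -0.18. No member passed in that fit, and 0.348% of all genes were called. Limma-voom called no member.

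By levels, Socs1, Socs2, Socs3 and Socs6 lay above in treated islets labelled bKO and Socs4 and Socs7 below, with no overlap, where 6.94% of all genes lay above and 10.8% below. Socs6 was at 0.12 (SE 0.076, adjusted p = 0.388), Socs4 at -0.14 (SE 0.089, adjusted p = 0.416) and Socs5 at 0.16 (SE 0.16, adjusted p = 0.586) in edgeR's test, and Socs5 turned to -0.10 without replicate 2. Ductal markers were at a median of 0.84 and stellate markers at 0.69 between these groups, with 0 of 6 and 0 of 7 called, and both sums were highest in replicate 2, without which the stellate median was 0.06. Their part in the differences was not tested.

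The cytokine responses of the 2 genotypes were compared directly. No member and no gene (0%) was called in edgeR's test of the difference, with 2162 genes at an unadjusted p under 0.05, among them Socs2 and Socs6, and DESeq2 called 0.939% of genes and no member. Socs2 fell less in islets labelled bKO by 0.48 (SE 0.19, adjusted p = 0.415, edgeR), a difference that did not pass. The Socs1 responses differed by 0.09 (SE 0.2, adjusted p = 0.872), those of Socs3 by -0.32 (SE 0.23, adjusted p = 0.601) and those of Socs7 by -0.21 (SE 0.14, adjusted p = 0.574) in edgeR's test. Cish (0.13, SE 0.17), Socs5 (0.10, SE 0.22) and Socs4 (-0.08, SE 0.13) were nearer to 0. Without replicate 2 of treated bKO-labelled islets the difference was 0.26 for Socs2, -0.11 for Socs7, 0.26 for Cish and -0.16 for Socs5.

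**Figure D4:**
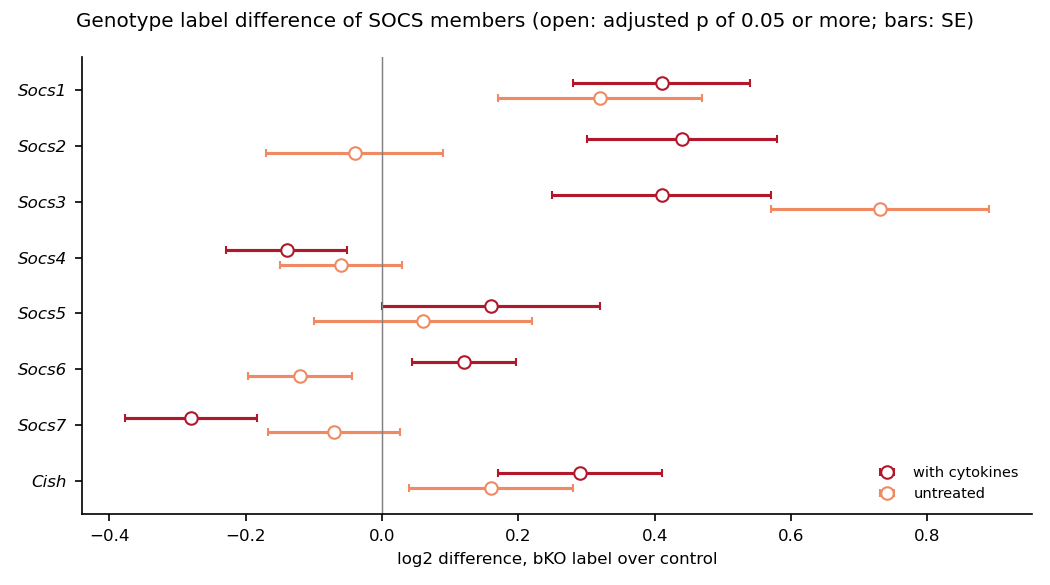
Log2 difference of each SOCS family gene, islets labelled bKO over control islets (x axis), with cytokines (dark) and untreated (light), with bars of 1 SE. All points are open because none passed at adjusted p under 0.05, and Socs3 in untreated islets lies farthest from 0, at 0.73.

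The pathway that SOCS proteins act on was described through lists of genes by role. Of all 19800 tested genes, 28.8% were called higher with cytokines and 33.6% lower in islets labelled bKO. In control islets the shares were 26.8% and 33.9%. The list counts below were not tested against these shares. Among 21 ligands of JAK-STAT receptors, 13 were measured above the filter, and with cytokines 8 rose and 1 fell in each genotype. Il6, whose receptor SOCS3 restrains, had 127, 166 and 182 CPM in treated and 6.47, 5.19 and 7.41 CPM in untreated islets labelled bKO, against 176, 141 and 155 CPM and 3.98, 7.24 and 6.80 CPM in control islets. All treated libraries were above all untreated ones, and the log2 change was 4.64 (SE 0.24, adjusted p = 2.88e-08, edgeR) in islets labelled bKO and 4.71 (SE 0.24, adjusted p = 2.72e-08, edgeR) in control islets.

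Of 7 receptor genes whose signals SOCS1 restrains, 7 rose in islets labelled bKO and 6 in control islets, and none fell in edgeR's test. Ifngr2, the signalling chain of the interferon gamma receptor, had 104 CPM (SD 1.77, n = 3) in treated and 30.6 (SD 1.53) in untreated islets labelled bKO, against 96.3 (SD 2.95) and 32.5 (SD 2.10) in control islets. Its log2 change was 1.76 (SE 0.066) in islets labelled bKO and 1.57 (SE 0.066) in control islets. Ifnar2, a chain of the type I interferon receptor, rose by 1.21 (SE 0.076) and 1.26 (SE 0.077). Il7r, of the IL-7 receptor, rose by 2.70 (SE 0.19) in islets labelled bKO, and Il2rg, the chain shared by several interleukin receptors, by 3.00 (SE 0.22) in control islets. Il7r was also higher in treated than in untreated control islets, at 17.2 and 2.79 CPM. So was Il2rg in islets labelled bKO, at 11.7 and 1.38 CPM. Il7r and Il2rg are also genes of immune cells, whose markers moved as given above.

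Of 8 receptor genes of the SOCS3 list, 5 rose and 1 fell in islets labelled bKO, and 4 rose and 2 fell in control islets. Il6ra, the chain that binds IL-6, had 33.8, 25.2 and 29.3 CPM in treated and 95.6, 98.1 and 96.0 CPM in untreated islets labelled bKO, against 35.9, 33.9 and 33.4 CPM and 121, 106 and 110 CPM in control islets. It fell by 1.72 (SE 0.097, adjusted p = 5.98e-08, edgeR) in islets labelled bKO and by 1.71 (SE 0.096, adjusted p = 6.57e-08, edgeR) in control islets on the log2 scale. Il6st, which encodes gp130, rose by 0.64 (SE 0.068) in islets labelled bKO and 0.66 (SE 0.068) in control islets. Osmr, the oncostatin M receptor, rose by 1.63 (SE 0.26) in islets labelled bKO, and Csf3r, the receptor of granulocyte colony-stimulating factor, by 1.40 (SE 0.27) in control islets. Osmr was also higher in treated than in untreated control islets, at 44.3 and 20.4 CPM. So was Csf3r in islets labelled bKO, at 1.71 and 0.663 CPM.

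Of 7 receptor genes of the CISH and SOCS2 list, 6 were tested. In islets labelled bKO 3 rose and 2 fell, and in control islets 2 rose and 2 fell. Prlr, the prolactin receptor, had 22.9, 15.2 and 19.8 CPM in treated and 119, 167 and 175 CPM in untreated islets labelled bKO, against 27.7, 26.5 and 24.0 CPM and 190, 138 and 152 CPM in control islets. It was the lowest of the list, at -2.99 (SE 0.19, adjusted p = 1.47e-07, edgeR) in islets labelled bKO and -2.62 (SE 0.18, adjusted p = 3.91e-07, edgeR) in control islets. Ghr, the growth hormone receptor, had 85.7 CPM (SD 12.8) in treated and 185 (SD 20.7) in untreated islets labelled bKO, against 102 (SD 1.79) and 206 in control islets (198 to 222), and fell by 1.11 (SE 0.11) and 1.01 (SE 0.11). Csf2rb, a receptor chain of macrophages, had 25.4 CPM in treated and 8.38 CPM in untreated islets labelled bKO and rose 3.03-fold. In control islets it had 22.1 and 8.52 CPM. Il3ra, the IL-3 receptor chain, rose by 1.14 (SE 0.12) on the log2 scale in control islets. In islets labelled bKO it had 35.7 CPM in treated and 17.3 CPM in untreated ones.

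Among 9 receptor tyrosine kinases and adaptors, the partners of SOCS2, SOCS6 and SOCS7, 3 rose and 2 fell in islets labelled bKO, and 4 rose and 3 fell in control islets. Grb2, an adaptor of growth factor receptors, rose by 1.28 (SE 0.089) in islets labelled bKO and 1.34 (SE 0.09) in control islets. Irs1, an insulin receptor substrate, fell by 1.58 (SE 0.19) and 1.51 (SE 0.19). Egfr, the EGF receptor, rose by 1.02 (SE 0.17) in islets labelled bKO, and Kit, the stem cell factor receptor, fell by 0.72 (SE 0.14) in control islets. Egfr was also higher in treated than in untreated control islets, at 104 and 63.9 CPM. Kit was also lower in treated than in untreated islets labelled bKO, at 10.3 and 13.8 CPM.

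Of the 4 JAK genes, 2 rose and 1 fell in islets labelled bKO, and 3 rose in control islets. Jak2 had 168 CPM (SD 19.3) in treated and 50.2 (SD 1.17) in untreated islets labelled bKO, against 160 (SD 13.7) and 49.7 (SD 1.17) in control islets, changes of 1.75 (SE 0.088) and 1.68 (SE 0.088). Jak1 rose by 0.59 (SE 0.062) in islets labelled bKO and 0.68 (SE 0.062) in control islets. Tyk2 fell by 0.20 (SE 0.077, adjusted p = 0.0363, edgeR) in islets labelled bKO, and Jak3 rose by 0.55 (SE 0.19, adjusted p = 0.0267, edgeR) in control islets. The fall of Tyk2 did not pass without replicate 2 of treated bKO-labelled islets, where no JAK was called lower.

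Among STAT genes, Stat5b, which acts below the growth hormone and prolactin receptors and is named after its value was seen, fell in islets labelled bKO, at -0.30 (SE 0.085, adjusted p = 0.00859, edgeR), and it did not pass without replicate 2. In control islets Stat5b had 75.5 CPM in treated and 82.3 CPM in untreated ones. Stat2 had 246, 202 and 259 CPM in treated and 62.3, 55.3 and 42.5 CPM in untreated islets labelled bKO, against 307, 461 and 390 CPM and 33.8, 45.7 and 43.4 CPM in control islets. Its changes of 2.14 (SE 0.19) in islets labelled bKO and 3.24 (SE 0.19) in control islets differed by -1.09 (SE 0.25, adjusted p = 0.251, edgeR), which did not pass. Stat3, which acts below gp130, rose by 0.87 (SE 0.11) in islets labelled bKO and 1.13 (SE 0.11) in control islets.

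Genes known as targets of STATs were listed by factor, without regard to the direction in which a STAT moves them. Of 15 STAT3 targets 14 rose in each genotype, with a median of 1.63 in islets labelled bKO and 2.47 in control islets, and Pim1, a kinase gene, rose by 2.10 (SE 0.09) and 2.18 (SE 0.091). Lcn2, an iron-binding acute phase protein, rose by 3.96 (SE 0.29) in islets labelled bKO. In control islets it had 1350 CPM in treated and 161 CPM in untreated ones. Socs3 is known as a STAT3 target too, and is not on this list. The STAT5 list holds Cish and Socs2 themselves. Of its 10 genes 2 rose and 2 fell in islets labelled bKO, and 5 rose and 3 fell in control islets, with medians of 0.06 and 0.40. Tnfrsf11b, a decoy receptor of bone biology, rose by 2.99 (SE 0.13) in islets labelled bKO and 3.08 (SE 0.13) in control islets, and Bcl6, a repressor, by 0.98 (SE 0.11) and 1.42 (SE 0.11). Ehhadh, a fatty acid oxidation gene, fell by 1.13 (SE 0.11) and 1.03 (SE 0.11).

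Of 13 other negative regulators of the pathway, 6 rose and 3 fell in islets labelled bKO, and 6 rose and 2 fell in control islets. Usp18, which restrains the type I interferon receptor, had 75.2 CPM (SD 7.03) in treated and 8.6 (SD 0.983) in untreated islets labelled bKO, against 98.7 (SD 5.21) and 10.5 (SD 0.4) in control islets, changes of 3.13 (SE 0.1) and 3.23 (SE 0.1). Ptpn2 rose by 1.51 (SE 0.1) in islets labelled bKO and 1.47 (SE 0.099) in control islets. Cblb, a ubiquitin ligase, rose by 0.63 (SE 0.086) in islets labelled bKO, and Ptpn1, the phosphatase most like Ptpn2, by 0.74 (SE 0.1) in control islets. Cblb was also higher in treated than in untreated control islets, at 44.9 and 31.1 CPM. So was Ptpn1 in islets labelled bKO, at 190 and 143 CPM.

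**Figure D5:**
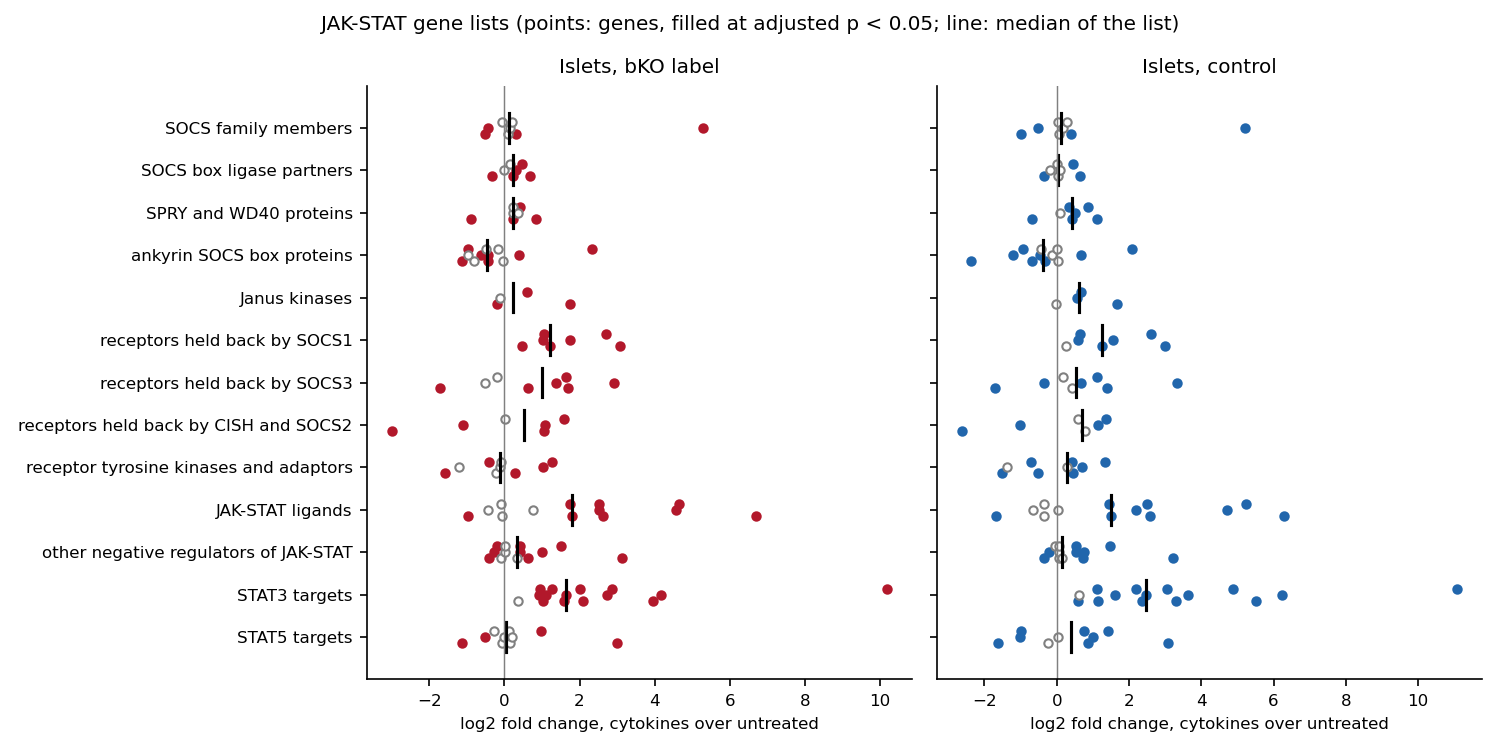
Log2 fold change with cytokines over untreated (x axis) of every tested gene of the SOCS family and of the lists of its pathway shown (rows), in islets labelled bKO (left) and control islets (right), filled at adjusted p under 0.05, with a line at each list's median. STAT3 targets have medians of 1.63 and 2.47, while the SOCS family has medians of 0.13 and 0.12 and only Socs1 lies far from 0.

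Between genotypes in untreated islets, 4 of 15 STAT3 targets passed, all higher in islets labelled bKO, with a list median of 0.71, and no gene of the other pathway lists did in edgeR's test. Of all genes, 0.0758% were called there. The lists were chosen with earlier results of these data known, so the count is a description and not a test of STAT3 activity. Serpina3n, an acute phase protease inhibitor whose reads are hard to tell from its close copies, had 73.5, 86.7 and 74.1 CPM in untreated islets labelled bKO and 3.76, 7.21 and 9.03 CPM in untreated control islets (log2 3.54, SE 0.33, adjusted p = 0.00186, edgeR). Fgb, a fibrinogen chain, had 120, 124 and 65.9 CPM in untreated islets labelled bKO and 2.49, 6.29 and 4.24 CPM in untreated control islets (4.58, SE 0.47, adjusted p = 0.00186, edgeR), and the other chains Fga and Fgg were at 5.85 (SE 0.57) and 6.01 (SE 0.64). Socs3 lay above the controls in the same libraries without passing. With cytokines 1 STAT3 target passed between genotypes, Fgg, at 3.06 (SE 0.54, adjusted p = 0.0496, edgeR), where 0.232% of all genes were called. Without replicate 2 of treated bKO-labelled islets 4 STAT3 targets passed, where 0.348% of all genes were called. No gene of any pathway list passed in the difference between the responses.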

How the data were processed

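The deposited count table holds raw whole numbers for 55536 genes, as the authors made it, and another deposited table holds the 26532 of them whose counts total 10 or more. The tools named, per the submitters' processing notes, were STAR 2.5.2a, featureCounts 1.6.2, cutadapt 1.16, DESeq2 1.30.0 and FastQC 0.11.7, with the GRCm38 build. The sources used here give neither annotation release nor counting strand. Deposited size factors were not used, and 0 columns of per-sample counts were left unused. Titles gave the groups and replicate numbers.

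After filterByExpr, 19800 genes remained. Libraries were scaled by TMM, and edgeR 4.0.16 (R 4.3.3) fitted 1 coefficient per group to the 12 libraries. Its quasi-likelihood test was adjusted over all genes by Benjamini-Hochberg. The comparisons were cytokines against untreated in each genotype, islets labelled bKO against control in each treatment, and the difference between the responses. The SE is the log2 fold change over the square root of F. CPM uses TMM-scaled library sizes, and lengths are merged exons of GENCODE M21. Every member had at least 114 counts in every library. The fit was run on simulated counts in which few genes changed, so that run does not cover the broad changes seen with cytokines.

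The members and the gene lists were chosen with earlier results of these data known. Genes named are the 8 members, Ptpn2 and, per list and comparison, up to 3 with the smallest adjusted p among those called. Csf2, Csf3 and Saa3, whose untreated counts were near 0, are left out. Marker genes, genes that overlap Cish and the genes most like a member in pattern are named too. Outside this rule Stat5b and Fbxo45 are named, Stat5b after its value was seen. Promoter windows are from RefSeq (GRCm38.p6), in which 4 of 8 members were matched. The paired GAAA core and TTCNNNGAA were searched on both strands, and the kappa B motif on the gene's strand alone. Alternative settings were other scaling (DESeq2's size factors, library totals, TMM without acinar markers and abundant genes), other filters (none, or 1 CPM in 3 libraries), other tools (DESeq2 1.42.0, limma-voom with limma 3.58.1), the deposited filtered table, only the groups compared, blocks by replicate number and omission of single libraries. Some genes and lists are not reported here.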

Additional observations from a re-analysis of the deposited data

How the results depend on the processing

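The Socs1 rise held in all 23 alternatives in each genotype (log2 5.06 to 5.44 in islets labelled bKO, 4.97 to 5.33 in control islets), and so did the Socs2 fall (-0.73 to -0.40 and -1.21 to -0.90). DESeq2 called 1 member between genotypes without cytokines and 1 with cytokines, where edgeR called 0. Leaving out 1 library gave 3 to 6 called members with cytokines in each genotype and 0 to 0 in the comparisons of genotype and of the responses. In those cytokine fits 10977 to 12532 of all 19800 genes were called in islets labelled bKO and 10768 to 13035 in control islets. With library totals, islets labelled bKO had Cish at -0.07, Socs4 at -0.12 and Socs7 at -0.04, and control islets had Cish at -0.20, Socs4 at -0.04 and Socs6 at -0.17. DESeq2's size factors and DESeq2 both gave Socs3 0.03 in islets labelled bKO. Signs also turned when 1 library was left out, for the response of Socs3 in islets labelled bKO (-0.15 to 0.15) and Cish in control islets (-0.02 to 0.10), the genotype difference of Socs4 untreated (-0.11 to 0.03) and Socs5 with cytokines (-0.10 to 0.30), and the difference between responses of Socs1 (-0.04 to 0.25) and Socs5 (-0.16 to 0.23). None of these had passed the test, and the cause was not tested. Replicate numbers showed no clear pairing of libraries. Same-numbered libraries correlated at -0.103 to 0.096 over 6 pairs, and 5 of 12 libraries correlated best with their own number. The correlations rest on deviations within groups of 3 libraries, so they cannot tell whether same-numbered libraries share mice. With a replicate block by number, Socs5 in islets labelled bKO no longer passed (-0.44, adjusted p = 0.0549, edgeR) and 3 members were called among 11754 of 19800 genes, and with a block by genotype and number 4 were, among 11634. A fit of the compared groups alone also lost it (adjusted p = 0.082). That fit called Socs3 (0.33, adjusted p = 0.0358) and Socs4 (0.25, adjusted p = 0.0175) in control islets. DESeq2's size factors in edgeR called Socs7 in islets labelled bKO (0.27, adjusted p = 0.049). Over all genes, calls with cytokines were 5711 higher and 6647 lower in islets labelled bKO and 5298 and 6704 in control islets, and library totals gave 4000 and 8693, and 3737 and 8998. Calls between genotypes moved most: without cytokines 15 became 32 with no filter, 128 with DESeq2, 122 with the compared groups alone and 59 without replicate 2 of treated bKO-labelled islets. With cytokines 46 became 190 with no filter, 705 with DESeq2, 0 with the compared groups alone (1833 at an unadjusted p under 0.05), 7 with a replicate block by number, and 4 to 459 when 1 library was left out. For the difference between responses 0 became 1 with no filter, 186 with DESeq2 and 0 to 3 when 1 library was left out. The call of Socs3 between untreated genotypes thus changed with the tool.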

Other observations

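SOCS proteins share their SOCS box with other families, and genes of the lists drawn up around that box changed in mixed directions with cytokines. Of all tested genes, 28.8% were called higher and 33.6% lower in islets labelled bKO, and 26.8% and 33.9% in control islets. The counts of these lists were not tested against those shares. Of 7 genes of the ligase that the box recruits, 4 rose and 1 fell in islets labelled bKO and 2 rose and 1 fell in control islets. Ube2f, an enzyme that attaches NEDD8 to Cullin-5, had 55.5 CPM (SD 0.925, n = 3) in treated and 34.4 (SD 0.765) in untreated islets labelled bKO, against 52.9 (SD 1.35) and 34.2 (SD 2.04) in control islets, changes of 0.69 (SE 0.061) and 0.63 (SE 0.061). Arih2, a ubiquitin ligase that works with Cullin-5, rose by 0.48 (SE 0.065) in islets labelled bKO and 0.46 (SE 0.065) in control islets. Cul5 itself had 49.0 CPM (SD 0.561) in treated and 62.1 (SD 3.57) in untreated islets labelled bKO, against 46.9 (SD 2.49) and 60.2 (SD 3.19) in control islets, and fell by 0.34 (SE 0.067) and 0.36 (SE 0.067).

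A list of 7 SPRY and WD40 proteins holds 6 with a SOCS box and Fbxo45, an F-box protein without one. Of the 7, 3 rose and 1 fell in islets labelled bKO and 5 rose and 1 fell in control islets. Fbxo45 was among those that rose, at 0.23 (SE 0.075) and 0.33 (SE 0.075). Spsb2, a ligase adaptor that acts on inducible nitric oxide synthase, had 7.76, 8.09 and 8.05 CPM in treated and 14.5, 14.6 and 15.2 CPM in untreated islets labelled bKO, against 8.06, 8.55 and 8.62 CPM and 13.9, 13.2 and 13.4 CPM in control islets. It fell by 0.89 (SE 0.075, adjusted p = 1.37e-06, edgeR) in islets labelled bKO and by 0.68 (SE 0.074, adjusted p = 1.18e-05, edgeR) in control islets on the log2 scale. Wsb1 rose by 0.83 (SE 0.11) in islets labelled bKO and 0.87 (SE 0.11) in control islets, and Spsb3 by 0.42 (SE 0.1) and 0.51 (SE 0.1). Of 18 ankyrin repeat proteins with a SOCS box, 12 were tested, of which 2 rose and 5 fell in islets labelled bKO and 2 rose and 6 fell in control islets. Asb4 had 127, 66.2 and 104 CPM in treated and 19.5, 21.6 and 17.7 CPM in untreated islets labelled bKO, against 61.1, 76.9 and 46.0 CPM and 13.1, 15.4 and 14.7 CPM in control islets, changes of 2.34 (SE 0.23) and 2.09 (SE 0.23). Asb1 fell by 0.97 (SE 0.081) in islets labelled bKO and by 0.93 (SE 0.081) in control islets. Asb8 fell by 0.44 (SE 0.066) in islets labelled bKO, and Asb6 rose by 0.67 (SE 0.081) in control islets. Asb8 was also lower in treated than in untreated control islets, at 19.4 and 24.3 CPM. Asb6 was also higher in treated than in untreated islets labelled bKO, at 33.9 and 25.7 CPM. None of these genes passed between genotypes in edgeR's test.

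The genes most like each member over the 12 libraries were sought among 13592 genes by the root mean square difference of log2 CPM, each centred on its own mean. Nearest to Socs1 were C1s1 (0.23), Icam1 (0.28) and Neurl3 (0.31), against a spread of 2.61 of Socs1 about its own mean. Nearest to Socs3 were Flot1 (0.14), Rsph1 (0.16) and Scamp5 (0.18), against a spread of 0.35. Nearest to Socs2 were Fam3c (0.08), Tmtc4 (0.09) and Id3 (0.10), against a spread of 0.43, and nearest to Cish were Mon1a (0.06), Vrk3 (0.07) and Tle1 (0.09), against a spread of 0.18. The libraries share treatment and scaling, so these are descriptions of likeness over the same 12 points.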
